A study of Mus musculus with 30 samples.

Results

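The homeostatic and constitutive chemokines of skin were taken as 10 genes, Cxcl12, Cxcl13, Cxcl14, Cxcl16, Cx3cl1, Ccl6, Ccl9, Ccl19, Ccl20 and Ccl24, and all probe sets whose gene symbol in the deposited matrix names 1 of them were used. This gave 20 of 45037 probe sets on the Affymetrix mouse genome array. Of these, 19 passed the filter that left out the dimmest 20% of probe sets, and the 20th, 1 of 4 for Cx3cl1, is given by its levels only. Whole shaved back skin came from female mice of a mixed 129–C57BL/6 background, aged 8 to 12 weeks, which were WT or lacked D6 (Ackr2, listed as Ccbp2), a scavenger of inflammatory CC chemokines found mainly on lymphatic endothelium. The phorbol ester TPA, dissolved in acetone at 50 μM, was painted on the skin 3 times at daily intervals, and skin was taken 1, 2, 4 or 6 days after the last application. Day 0 stands for control skin, which received acetone alone although some of its labels read untreated. With 5 days and both genotypes there were 10 groups of 3 biological replicates, or 30 arrays. D6 is absent from the D6-deficient mice in every tissue and at every day, so a difference between the genotypes belongs to mice that developed without it.

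Chemokines guide leukocytes through G protein-coupled receptors. Those called homeostatic place cells in resting tissue: CXCL12 holds cells in stromal niches through CXCR4, CXCL13 draws B cells through CXCR5, and CCL19 draws dendritic cells and naive T cells through CCR7. CXCL14 is made by resting epithelium, and CXCL16 and CX3CL1 are made as membrane-bound proteins that proteases shed. CCL6 and CCL9 are mouse myeloid chemokines that act on CCR1, CCL20 draws CCR6-bearing Langerhans cell precursors and T cells, and CCL24 draws eosinophils through CCR3. Inflammation can also induce several of them, CCL20 among them.

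Values are log2 intensities, and each gene is quoted on its probe set with the highest mean over the arrays, with other probe sets named where they differ. limma was fitted to all 30 arrays, p values were adjusted by Benjamini-Hochberg over 36029 probe sets, and a probe set was called, or said to have risen or fallen, at an adjusted p under 0.05. Array medians ran from 5.64 to 5.80. The 3 arrays of D6-deficient day 6 correlated least with their own group (0.976 to 0.982, against 0.986 or more elsewhere). On 1 of the 3 Ackr2 probe sets every D6-deficient array (3.30 to 3.86) was below every WT array (4.15 to 5.76), whereas on the brightest the genotypes overlapped (6.59 to 8.09 and 6.69 to 8.54). Basal keratinocyte markers (Krt5, Krt14, Krt15 and Trp63) summed to between 13.6 and 15.0 on every array, as fits skin. Summed markers of the growing hair follicle lay between 6.86 and 7.51 on days 0, 2 and 4 in both genotypes but between 10.8 and 15.5 on days 1 and 6. Suprabasal keratinocyte markers summed to between 8.94 and 13.1 on day 4 and between 14.7 and 15.5 on the other days, with Krt2 below the filter. In whole skin, fewer cells of a type and less RNA per cell cannot be told apart.

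**Figure D1:**
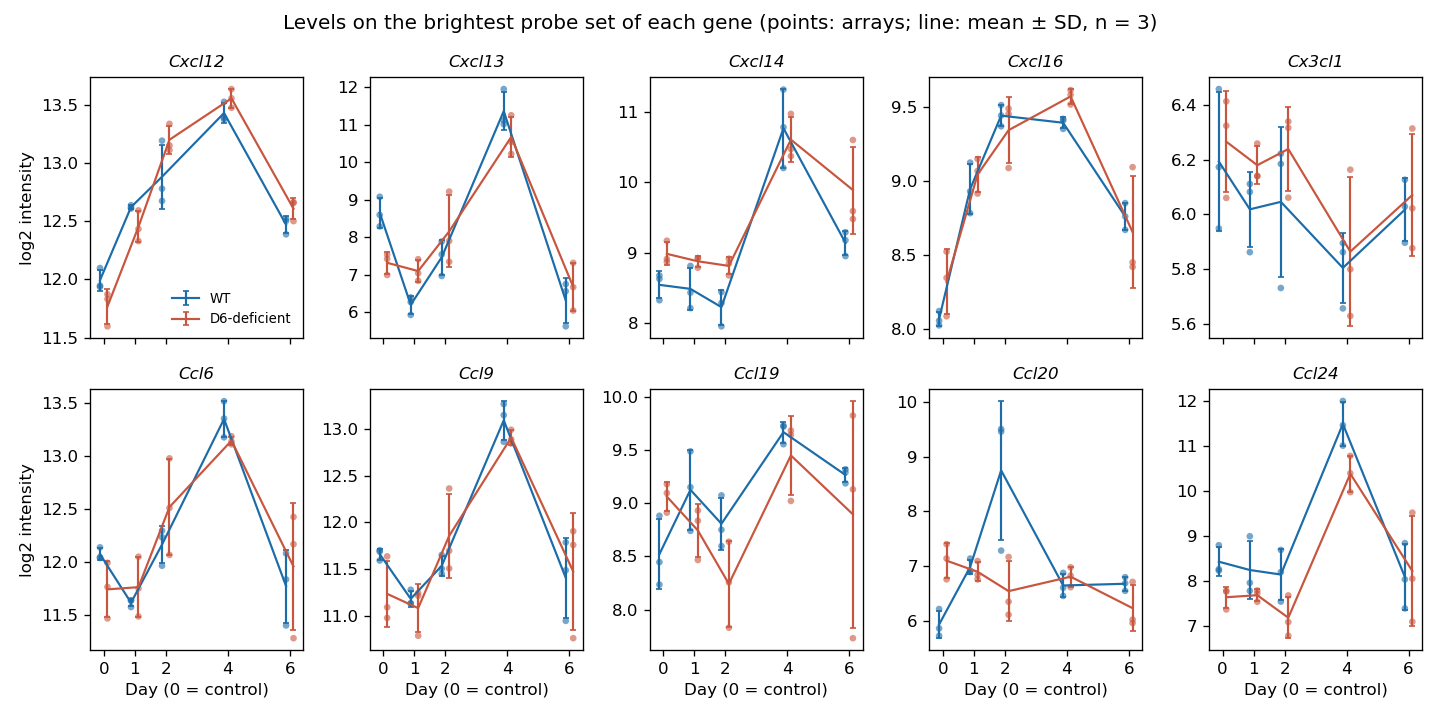
Log2 intensity (vertical axes, each on its own scale) of the brightest probe set of the 10 genes by day (horizontal axes, 0 for control skin), with 1 point per array and lines through the mean ± SD of 3 arrays, WT in blue and D6-deficient in red. Cxcl12, Cxcl13, Cxcl14, Ccl6, Ccl9 and Ccl24 peaked on day 4 in both genotypes, whereas Ccl20 peaked on day 2 in WT skin alone, at 8.75 against 6.54 in D6-deficient skin.

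The first question was how TPA changed these chemokines in each genotype. Day 4 stood out: 8 of the 10 genes had their highest group mean on that day, 6 of them in WT and 2 in D6-deficient skin. Of the 19 probe sets tested, limma called 15 higher on day 4 in WT skin (17.3% of all probe sets tested) and 0 lower (21.8%), and the median difference from day 0 was 1.43 against 0.01 over all probe sets tested. In D6-deficient skin it called 13 higher (18.8%) and 1 lower (22.4%) on day 4, with medians of 1.40 and 0.01. The earlier and later days were closer to the background. On day 1 the counts were 4 higher (11.4%) and 2 lower (12.7%) in WT skin and 4 higher (18.2%) and 1 lower (18.1%) in D6-deficient skin. On day 2 they were 4 higher (11%) and 1 lower (15%) in WT skin and 8 higher (17.5%) and 2 lower (20.6%) in D6-deficient skin. By day 6 they were 3 higher (10.2%) and 2 lower (11.9%) in WT skin and 3 higher (16%) and 0 lower (15.7%) in D6-deficient skin. On days 1, 2 and 6 the median differences of the 19 were -0.06, 0.09 and 0.10 in WT skin and 0.01, 0.19 and 0.15 in D6-deficient skin, and those over all probe sets tested were at most 0.02 in size. The 4 comparisons within a genotype share their day 0 arrays and are therefore not independent of each other. Where limma called 0 lower, 1 in WT skin on day 4 and 1 in D6-deficient skin on day 6 were lower at an unadjusted p under 0.05, and the lowest differences there were -0.39 for Cx3cl1 (adjusted p = 0.0501) and -0.87 for Ccl20 (adjusted p = 0.0759).

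**Figure D2:**
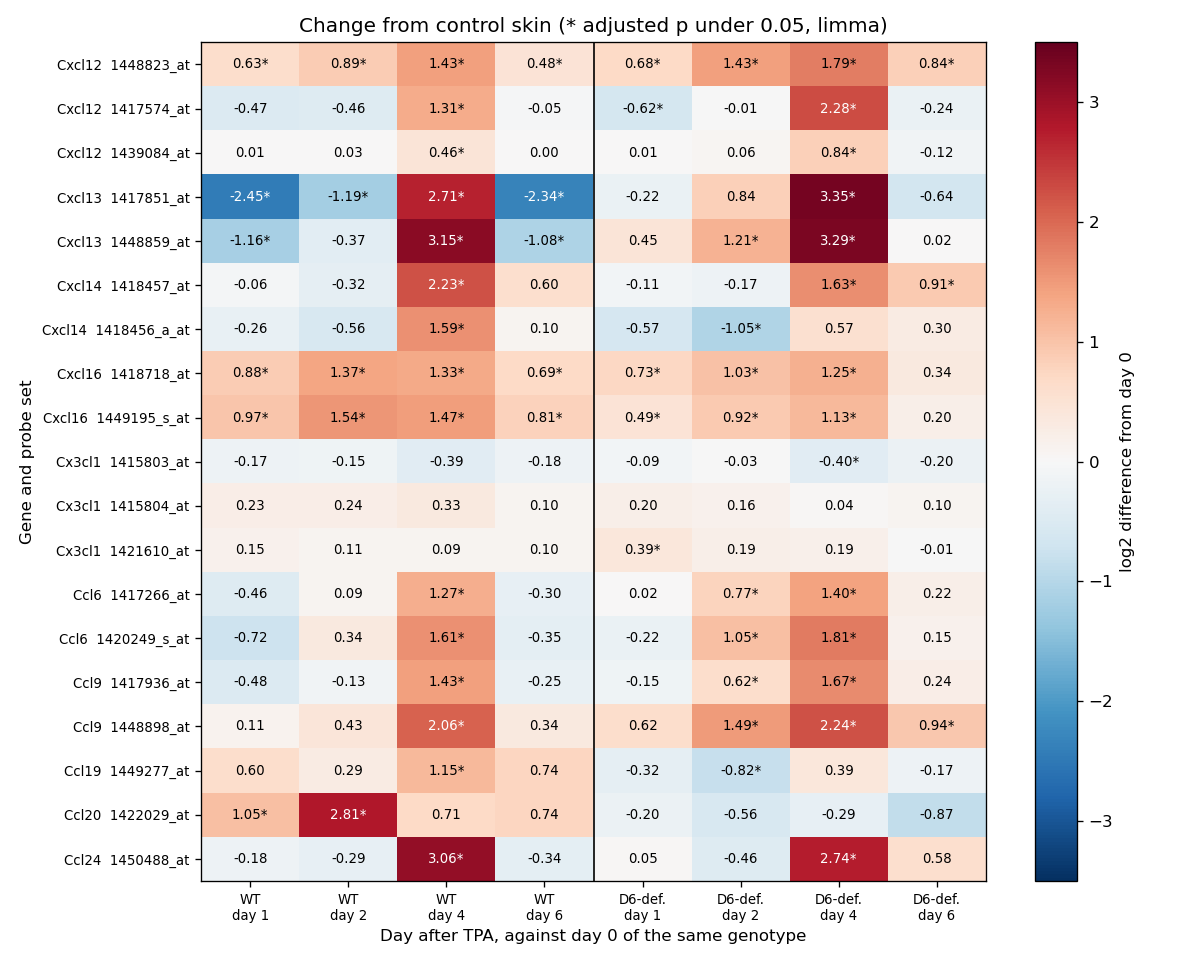
Log2 difference from day 0 of the same genotype (colour and number in each cell) for the 19 tested probe sets (rows) on days 1, 2, 4 and 6 (columns), with WT to the left and D6-deficient to the right of the line and an asterisk for an adjusted p under 0.05. The day 4 columns hold 15 probe sets called higher for WT and 13 for D6-deficient skin, while the Cxcl13 rows hold both falls and rises in WT skin.

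Among the stromal and follicle-organizing ligands, Cxcl12 was the steadiest responder. Control skin gave 11.94, 12.10 and 11.95 in WT and 11.60, 11.83 and 11.87 in D6-deficient mice, and day 4 gave 13.39, 13.52 and 13.37 in WT and 13.63, 13.47 and 13.55 in D6-deficient mice. Neither genotype's treated arrays overlapped its controls on any of the 4 days. In WT skin the differences from day 0 were 0.63, 0.89, 1.43 and 0.48 on days 1, 2, 4 and 6 (SE 0.11 each, adjusted p between 9.57e-10 and 0.00353), and in D6-deficient skin 0.68, 1.43, 1.79 and 0.84 (SE 0.11, adjusted p between 2.19e-11 and 4.99e-05). The day 4 rise was 2.70-fold for WT and 3.45-fold for D6-deficient mice. A rise on day 4 only was seen on the other 2 Cxcl12 probe sets. On the brighter of these the differences were 1.31 and 2.28 on day 4 but -0.47 and -0.62 on day 1, the latter called lower, so the probe sets disagree in direction on day 1. On the dimmest the day 4 differences were 0.46 and 0.84, with no difference over 0.12 in size on the other days. Among other genes, the pattern of Cxcl12 over the 30 arrays was most like that of Arpc3 (Pearson r = 0.965), a subunit of the actin-branching complex, Ripk3 (0.952), a kinase of necroptosis, and Samsn1 (0.951).

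Cxcl13 moved both ways in WT skin. Its WT arrays stood at 9.08, 8.29 and 8.60 on day 0, fell to 5.94, 6.40 and 6.28 on day 1, reached 11.12, 11.02 and 11.95 on day 4 and were back at 6.57, 6.76 and 5.63 on day 6. These 4 sets of arrays did not overlap, apart from days 1 and 6. The WT differences from day 0 were -2.45 on day 1 (SE 0.40, adjusted p = 9.08e-05), -1.19 on day 2 (adjusted p = 0.0297), 2.71 on day 4 (adjusted p = 9.30e-06) and -2.34 on day 6 (adjusted p = 0.000215). D6-deficient arrays began lower, at 7.43, 7.55 and 7.00, and differed from their own day 0 by an adjusted p under 0.05 on day 4 alone, at 10.23, 11.26 and 10.55 (3.35, SE 0.40, adjusted p = 3.81e-07), a 10.2-fold rise. The second probe set also fell in WT skin on days 1 and 6 (-1.16 and -1.08) and rose on day 4 in both genotypes (3.15 and 3.29), and in D6-deficient skin it also rose on day 2 (1.21, adjusted p = 0.00905). On WT day 2 it differed by -0.37 with no call (adjusted p = 0.487). The fall on WT day 2 lost its call when WT day 0 replicate 1 or 3 or WT day 2 replicate 1 or 3 was left out (adjusted p up to 0.133). Days 1 and 6, where Cxcl13 was low in WT skin, are the days of high hair follicle markers (10.8 to 13.9 in WT, against 6.86 to 7.51 on days 0, 2 and 4). In D6-deficient skin these markers were as high or higher on both days (13.0 to 15.5), where Cxcl13 differed from day 0 by -0.22 and -0.64 with no call. Macrophage markers in WT skin were lower on the same days, with 3 of 7 called lower on each (12.7% and 11.9% of all probe sets tested). Their sums were 14.2 to 14.3 and 14.1 to 14.6, against 14.6 to 14.8 on day 0. The part of these in the Cxcl13 result was not tested. Cxcr5, the receptor of CXCL13, was below the filter. The patterns most like that of Cxcl13 were those of Loxl3 (r = 0.957), a matrix cross-linking oxidase, Cebpd (0.933), a transcription factor of acute inflammation, and Hk3 (0.933), a hexokinase.

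Ccl19 was less regular. In WT skin it rose from 8.24, 8.45 and 8.88 on day 0 to 9.72, 9.73 and 9.55 on day 4 (1.15, SE 0.32, adjusted p = 0.00664). D6-deficient skin started at 9.10, 9.18 and 8.91 and was at 8.64, 7.83 and 8.26 on day 2 (-0.82, SE 0.32, adjusted p = 0.0485), and on day 4 it differed by 0.39 (adjusted p = 0.361). The D6-deficient fall stands at the threshold and was lost on leaving out any of 23 of the 30 arrays (adjusted p up to 0.211). The order of group means was led by WT day 4, D6-deficient day 4 and WT day 6, neighbours that did not differ beyond their SD. The most similar patterns had r of 0.746 or less and belonged to Xbp1, Tnfrsf4 and Calcb.

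The epithelial Cxcl14 rose on day 4. WT arrays went from 8.67, 8.63 and 8.32 on day 0 to 10.79, 10.21 and 11.32 (2.23, SE 0.25, adjusted p = 2.15e-07, 4.70-fold), and D6-deficient arrays from 9.17, 8.91 and 8.87 to 10.38, 10.98 and 10.48 (1.63, SE 0.25, adjusted p = 1.22e-05, 3.09-fold). No day 4 array overlapped its controls. On days 1 and 2 the quoted probe set differed from day 0 by at most 0.32 in size in either genotype, with no call. On day 6 D6-deficient skin was still higher (0.91, adjusted p = 0.00726), a call that was lost without D6-deficient day 6 replicate 2 (adjusted p = 0.0867), the highest of the 3 arrays at 10.61. The second probe set agreed on the rise in WT skin on day 4 (1.59, adjusted p = 2.37e-05) but not in D6-deficient skin, where the difference was 0.57 (adjusted p = 0.0728) and day 2 was called lower (-1.05, adjusted p = 0.00184), and on D6-deficient day 6 it gave 0.30 (adjusted p = 0.398). This rise fell on the day on which the summed suprabasal keratinocyte markers were lowest (10.6 to 13.1 in WT and 8.94 to 11.4 in D6-deficient skin), and the part of these in the result was not tested. S1pr3, a sphingosine 1-phosphate receptor, had the most similar pattern (r = 0.901).

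Of the membrane-bound chemokines, Cxcl16 responded and Cx3cl1 barely did. Cxcl16 rose on days 1, 2 and 4 in both genotypes. WT arrays were at 8.12, 8.03 and 8.06 on day 0, 8.93, 9.13 and 8.78 on day 1, 9.37, 9.44 and 9.51 on day 2 and 9.41, 9.42 and 9.35 on day 4. The WT differences were 0.88, 1.37, 1.33 and 0.69 on days 1, 2, 4 and 6 (SE 0.14, adjusted p between 1.14e-07 and 0.00121), and the D6-deficient differences 0.73, 1.03 and 1.25 on days 1, 2 and 4 (adjusted p between 1.85e-07 and 0.000344) and 0.34 on day 6 (adjusted p = 0.0749). The second probe set made the same 7 calls. Il1f9 (r = 0.946), an epidermal cytokine of the IL-1 family, Bcl2l15 (0.944) and Il1rn (0.942), the IL-1 receptor antagonist, had the patterns most like that of Cxcl16. Cx3cl1 lay between 5.63 and 6.46 on the 30 arrays. Its D6-deficient difference on day 4 was -0.40 (SE 0.16, adjusted p = 0.0411), with arrays of 5.80, 5.63 and 6.16 against 6.32, 6.06 and 6.41, which overlap, and leaving out any of 4 of these 6 arrays ended the call (adjusted p up to 0.205). The mean of the Cx3cl1 probe sets differed by 0.03, the opposite direction (adjusted p = 0.796). WT arrays of the quoted probe set also lay below their controls on day 4 (5.66 to 5.90 against 5.95 to 6.46), with no call. A different probe set was called higher on D6-deficient day 1 (0.39, adjusted p = 0.0392), and on the untested probe set the group means ran from 3.35 to 3.85.

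Ccl6 and Ccl9 rose together. The genes are neighbours on chromosome 11 (GRCm38.p6, 83587886 to 83593087 and 83572917 to 83578636), with 9249 bases between them, and over the 30 arrays each had the other as the most similar gene (r = 0.966). RefSeq promoters on GRCm38.p6, 300 bases around the gene start, were found for 8 of the 10 genes, not for Cxcl16 and Ccl24. The 2 neighbours' promoters are shown because the genes moved together, at chr11:83593038-83593337 (Ccl6) and chr11:83578587-83578886 (Ccl9), both on the minus strand and written 5′ to 3′. Capitals mark matches to TGANTCA, a loose form of the TPA response element with any base at N (the same on both strands), and to the NF-κB consensus (searched on both strands).
Ccl6: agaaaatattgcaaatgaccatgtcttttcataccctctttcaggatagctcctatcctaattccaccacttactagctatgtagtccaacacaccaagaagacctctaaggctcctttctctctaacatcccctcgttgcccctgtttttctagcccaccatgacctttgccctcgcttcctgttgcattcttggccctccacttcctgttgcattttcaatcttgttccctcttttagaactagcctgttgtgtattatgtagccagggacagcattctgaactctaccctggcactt
Ccl9: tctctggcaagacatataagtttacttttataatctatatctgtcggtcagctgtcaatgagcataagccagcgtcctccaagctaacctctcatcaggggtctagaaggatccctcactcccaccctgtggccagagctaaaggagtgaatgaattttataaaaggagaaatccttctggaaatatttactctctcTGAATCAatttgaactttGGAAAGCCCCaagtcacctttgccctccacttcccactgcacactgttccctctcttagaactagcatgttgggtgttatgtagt
In the Ccl9 window the TGANTCA match, with A at N, begins at position -53 from the gene start and the NF-κB match at -35, without overlap. The Ccl6 window holds neither. Of 32851 promoters of this length, 7.81% hold the first motif and 8.46% the second, and a match is a description of the letters, not evidence of a site.

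The rise of the pair was greatest on day 4. Ccl6 was at 12.14, 12.04 and 12.04 in WT control skin and 13.17, 13.35 and 13.51 on day 4 (1.27, SE 0.23, adjusted p = 0.000107), and at 11.47, 11.99 and 11.76 and then 13.13, 13.18 and 13.11 in D6-deficient skin (1.40, adjusted p = 2.84e-05). For Ccl9 the day 4 differences were 1.43 in WT (SE 0.24, adjusted p = 5.97e-05) and 1.67 in D6-deficient skin (adjusted p = 6.84e-06), and no day 4 array of either gene overlapped its controls. On day 2 both genes were called higher in D6-deficient skin, Ccl6 by 0.77 (adjusted p = 0.00960) and Ccl9 by 0.62 (adjusted p = 0.0493), while the WT differences were 0.09 and -0.13. The Ccl6 call on day 2 was lost without D6-deficient day 0 replicate 1 or day 2 replicate 1 (adjusted p up to 0.0840). The Ccl9 call was lost on leaving out any of 22 of the 30 arrays (adjusted p up to 0.291), although the second Ccl9 probe set gave 1.49 (adjusted p = 0.000253). On that probe set the WT day 2 arrays also lay above their controls (10.83 to 11.05 against 10.50 to 10.63), with no call. On D6-deficient day 6 the second Ccl9 probe set was called higher (0.94, adjusted p = 0.0153), with overlapping arrays, whereas the quoted one differed by 0.24 (adjusted p = 0.498). The difference between the genotypes in the change from day 0 to day 2 did not pass the test for either gene on the quoted probe sets (0.68, adjusted p = 0.282, and 0.74, adjusted p = 0.269). Macrophage markers (7 genes) summed to between 14.0 and 14.4 on day 0 and between 14.9 and 15.0 on day 2 in D6-deficient skin, and to between 14.6 and 14.8 and between 14.5 and 14.7 in WT skin, so they moved with Ccl6 and Ccl9 on that day. On that day D6-deficient skin had 4 of the 7 called higher (17.5% of all probe sets tested). WT skin had 1 called higher (11%) and 1 lower (15%), close to the background. On day 4 the macrophage markers summed to between 14.7 and 15.0 in WT skin, which overlaps the control level. There 3 were called higher (17.3% of all probe sets tested) and 2 lower (21.8%), with a median of 0.29. In D6-deficient skin they summed to between 14.4 and 14.6, just above the controls. There 4 were called higher (18.8%) and 2 lower (22.4%), with a median of 0.49. Neutrophil markers also moved with the pair on day 4: all 6 were called higher in both genotypes (17.3% and 18.8%), with median differences of 4.66 and 4.27. Their sum went from between 9.50 and 12.1 on day 0 to between 15.5 and 15.8 in WT skin. In D6-deficient skin it went from between 11.4 and 13.9 to 15.8. On day 2 the neutrophil markers were called higher for 6 of 6 in D6-deficient skin (17.5%, median 3.47) and 5 of 6 in WT skin (11%, median 1.55). The part of these cells in either result was not tested. After each other, the genes most like the pair were Nckap1l (r = 0.952 with Ccl6), a subunit of an actin-regulating complex of blood cells, Fermt3 (0.951 with Ccl6 and 0.945 with Ccl9), an integrin activator of blood cells, and Mcoln2 (0.944 with Ccl9).

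On the quoted probe sets Ccl24 showed the largest rise of the 10 genes on WT day 4. WT arrays went from 8.23, 8.27 and 8.80 on day 0 to 12.01, 11.01 and 11.47 on day 4 (3.06, SE 0.45, adjusted p = 8.30e-06, 8.35-fold), and D6-deficient arrays from 7.37, 7.79 and 7.77 to 9.98, 10.40 and 10.79 (2.74, SE 0.45, adjusted p = 2.61e-05, 6.70-fold). On the other days the differences were at most 0.58 in size, with no call. Both day 4 calls held on leaving out each of the 30 arrays in turn. The eosinophil markers did not move as one. Siglecf, an eosinophil surface lectin, rose on WT day 4 (2.46, adjusted p = 0.000660), as did Prg2, a granule protein (1.65, adjusted p = 0.00226), whereas in D6-deficient skin they differed from day 0 by 0.20 (adjusted p = 0.790) and 0.73 (adjusted p = 0.156). Ear2, a secreted ribonuclease and by far the brightest of the list, fell on day 4 in both genotypes (-1.78, adjusted p = 0.000704, and -2.77, adjusted p = 3.38e-06), and Epx was below the filter. The summed level, which follows Ear2, went from between 11.5 and 12.4 on day 0 to between 10.2 and 11.0 on day 4 in WT skin and from between 11.4 and 12.0 to between 8.69 and 9.39 in D6-deficient skin. The part of these cells in the Ccl24 result was not tested. Ccr3, the eotaxin receptor, was higher than day 0 on day 4 in both genotypes (1.40, adjusted p = 0.000939, and 0.79, adjusted p = 0.0473). Il13ra2, a decoy receptor of IL-13, had the pattern most like that of Ccl24 (r = 0.906).

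Ccl20 was the member with the largest difference between the genotypes. Its promoter on GRCm38.p6, chr1:83116516-83116815 on the plus strand, is shown for that reason, with the NF-κB match in capitals at position -80.
Ccl20: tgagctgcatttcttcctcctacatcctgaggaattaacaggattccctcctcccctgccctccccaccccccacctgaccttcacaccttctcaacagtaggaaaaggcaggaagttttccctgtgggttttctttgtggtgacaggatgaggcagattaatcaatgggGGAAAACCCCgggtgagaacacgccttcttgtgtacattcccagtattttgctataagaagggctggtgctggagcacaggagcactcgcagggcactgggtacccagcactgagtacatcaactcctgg
No TGANTCA match was found in it. The other 5 members with a promoter held neither motif.

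WT control skin gave 5.86, 5.73 and 6.22 for Ccl20. WT arrays rose to 6.89, 7.14 and 6.92 on day 1 and 9.50, 7.28 and 9.46 on day 2, and were at 6.46, 6.88 and 6.61 on day 4 and 6.80, 6.69 and 6.55 on day 6. D6-deficient control skin gave 7.14, 6.76 and 7.40, above WT control skin, and day 2 gave 7.17, 6.11 and 6.35. The rise in WT skin was 1.05 on day 1 (SE 0.37, adjusted p = 0.0404) and 2.81 on day 2 (adjusted p = 5.14e-06, 7.02-fold), and the differences in D6-deficient skin lay between -0.87 and -0.20 on the 4 days with no call. The day 1 call was lost on leaving out any of 5 of its 6 arrays (adjusted p up to 0.118). Of the WT day 2 arrays, replicate 2 was lower than the other 2 by over 2 units and just above the highest D6-deficient array. Il1a, an alarm cytokine of keratinocytes, had the pattern most like that of Ccl20 (r = 0.810).

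The next question was whether the genotypes differed on the same day. On day 2 limma called 1 of the 19 probe sets (4.45% of all probe sets tested), Ccl20, which was lower in D6-deficient skin (-2.20, SE 0.37, adjusted p = 0.000510, 4.61-fold). The call held on leaving out each array in turn, with differences between -2.94 and -1.83, but in a fit to the 6 arrays of day 2 alone its adjusted p was 0.0634. On day 0 limma called 0 of 19 (1.57%), with 6 at an unadjusted p under 0.05, and the methods' t-test gave 7 before and 0 after adjustment. On day 0 the arrays of the genotypes did not overlap for 11 of the 19 probe sets (21.6% of all probe sets tested). On the quoted probe sets this held for 7 of the 10 genes, 4 of them lower in D6-deficient skin (Cxcl12, Cxcl13, Ccl6 and Ccl24, differences of -1.33 to -0.23) and 3 higher (Cxcl14, Ccl19 and Ccl20, 0.44 to 1.16). None of these day 0 differences passed the test, with adjusted p of 0.0915 for Cxcl13 and 0.113 for Ccl20. Control skin also differed in cell type markers (over all probe sets tested, 0.713% were called higher and 0.855% lower in D6-deficient skin). Basal keratinocyte markers were higher in D6-deficient skin (sums of 14.6 to 14.8 against 14.1, 3 of 4 called higher, median difference 0.71). Macrophage markers were lower (14.0 to 14.4 against 14.6 to 14.8, 3 of 7 called lower, median difference -0.53). Of the 6 neutrophil markers 1 was called higher. The part of these in the day 0 results and in the changes from day 0 was not tested. By limma, 0 of 19 were called on day 1 (0.0555%), day 4 (0.513%) and day 6 (0.125%), with 2, 4 and 3 at an unadjusted p under 0.05 and 3, 4 and 2 by the methods' t-test before adjustment. On day 4 the 3 D6-deficient arrays of Ccl24 lay below the 3 WT arrays (-1.11, SE 0.45, adjusted p = 0.364).

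**Figure D3:**
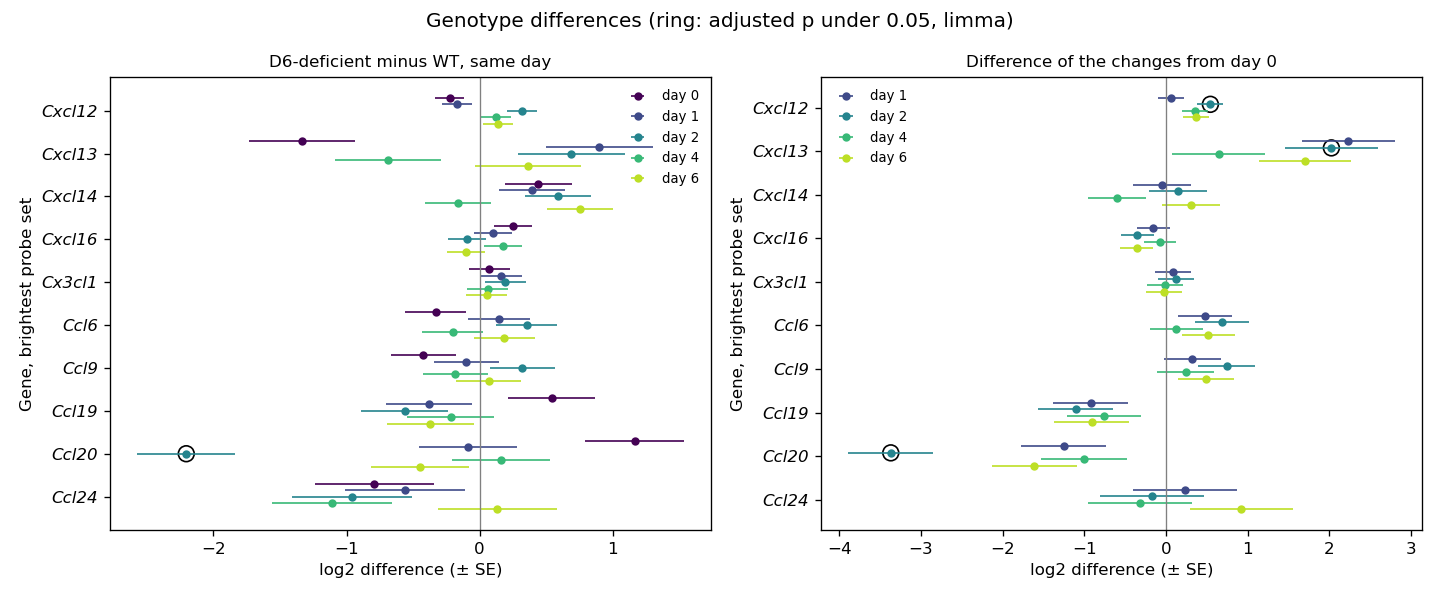
Log2 difference ± SE (horizontal axes) between D6-deficient and WT skin on the same day (left) and between their changes from day 0 (right) for the brightest probe set of the 10 genes (rows), coloured by day, with a ring for an adjusted p under 0.05. Ccl20 on day 2 lies apart from the rest in both panels, at -2.20 and -3.37, and Cxcl13 and Cxcl12 on day 2 carry the other rings.

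When the change from day 0 was compared between the genotypes, 3 of 19 probe sets were called on day 2 (5.4%). Ccl20 rose by 2.81 in WT skin and differed by -0.56 in D6-deficient skin, and the difference between these changes was -3.37 (SE 0.52, adjusted p = 0.000356). Cxcl13 fell in WT skin (-1.19) and differed by 0.84, with no call, in D6-deficient skin, a difference of 2.02 (SE 0.57, adjusted p = 0.0343). On this quoted probe set the WT fall is the larger part. Cxcl12 rose in both genotypes, by 0.89 (WT) and 1.43 (D6-deficient), and the second rise was greater by 0.54 (SE 0.16, adjusted p = 0.0430). Part of each value comes from day 0: the same-day differences were 1.16 on day 0 and -2.20 on day 2 for Ccl20, -1.33 and 0.69 for Cxcl13, and -0.23 and 0.32 for Cxcl12. The Ccl20 call held on leaving out each array (adjusted p up to 0.00189). The Cxcl13 call was lost on leaving out any of 7 of its arrays, the highest adjusted p being 0.107 without WT day 2 replicate 1. Its second probe set gave 1.58 (adjusted p = 0.0694). There the D6-deficient change was the larger part, from a mean of 6.08 on day 0 to 7.29 on day 2, while WT skin went from 7.065 to 6.695. The Cxcl12 call was lost on leaving out any of 15 arrays (adjusted p up to 0.134), and the other Cxcl12 probe sets gave 0.45 and 0.03 with no call. On day 1 limma called 0 of 19 (0.0194%), on day 4 0 (0.608%) and on day 6 0 (0.025%), with 4, 3 and 5 at an unadjusted p under 0.05 and 7, 8 and 4 by the methods' t-test before adjustment. Cxcl13 had its largest difference of this kind on day 1, 2.23 (SE 0.57, adjusted p = 0.176). All these contrasts share the day 0 arrays.

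Markers of several cell types also stood apart between the genotypes on day 2, in both directions. Over all probe sets tested, 2.46% were called higher and 1.99% lower in D6-deficient skin, and 2.78% and 2.62% relative to day 0. Higher in D6-deficient skin, with no overlap of the arrays, were the summed macrophage markers (14.9 to 15.0 against 14.5 to 14.7) and blood endothelial markers (11.3 to 11.8 against 11.0 to 11.3). Of the macrophage markers 1 of 7 was called higher (median difference 0.26), and relative to day 0 it was 3 of 7 (median 0.66). Of the blood endothelial markers 0 of 5 were called (median difference 0.49). Neutrophil markers overlapped when summed (15.6 to 15.7 against 15.2 to 15.7), a level set by S100a8 and S100a9, but 4 of the 6 were called higher (median difference 1.27), and relative to day 0 it was 3 of 6 (median 1.38). Lower with no overlap were suprabasal keratinocyte markers (14.7 to 14.9 against 15.1 to 15.4, 0 of 3 called) and sebocyte markers (5.74 to 8.68 against 9.91 to 10.8, 2 of 3 called lower). So were skeletal muscle markers (14.6 to 14.8 against 15.1 to 15.3, 2 of 5 called lower), B cell markers (6.69 to 6.83 against 6.88 to 6.92, 0 of 3 called) and the eosinophil sum (9.73 to 10.5 against 11.3 to 11.9). Dendritic and Langerhans cell markers overlapped (12.4 to 13.0 against 12.8 to 13.1), with 2 of 5 called lower. Of the eosinophil markers Ear2 was lower (-1.81, adjusted p = 0.00516), while Siglecf gave -0.76 (adjusted p = 0.556) and Prg2 1.34 (adjusted p = 0.0600). The part of any of these in the Ccl20, Cxcl13 and Cxcl12 results was not tested.

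Over all 5 days, limma called 1 of 19 probe sets between the genotypes (5.52%), that of Cxcl14, which was higher in D6-deficient skin by 0.40 (SE 0.11, adjusted p = 0.0332). Its arrays did not overlap between the genotypes on days 0, 2 and 6, while on day 4 the difference was -0.16. The call was lost on leaving out any of 11 of the 30 arrays (adjusted p up to 0.0625), and the second probe set gave 0.36 (adjusted p = 0.0629). The Ccl24 difference was -0.66 (SE 0.20, adjusted p = 0.0543), which missed the threshold.

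**Figure D4:**
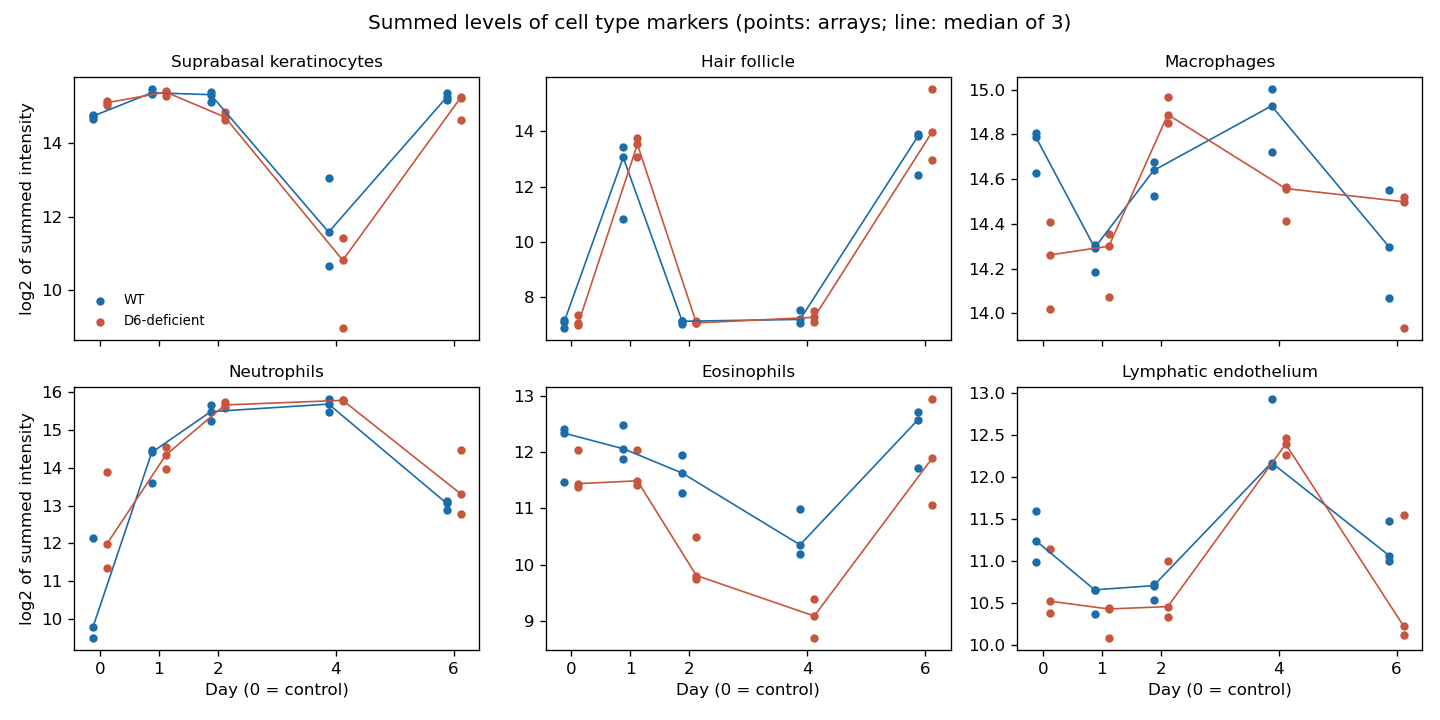
Log2 of the summed intensities of marker genes (vertical axes, each on its own scale) for 6 cell types by day (horizontal axes, 0 for control skin), with 1 point per array and a line through the median of 3, WT in blue and D6-deficient in red. Hair follicle markers were at about 7 on days 0, 2 and 4 and at 10.8 or more on days 1 and 6. Suprabasal keratinocyte markers were lowest on day 4, and the eosinophil sum, also lowest then, follows its brightest gene, Ear2, alone.

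The receptors of these ligands were examined as a list of 10 genes, of which 9 were tested. In WT skin 5, 6, 5 and 4 were called higher than day 0 on days 1, 2, 4 and 6, and 1 lower on each of days 1 and 4, with median differences of 1.02, 0.88, 1.08 and 0.52. Of all probe sets tested, 11.4%, 11%, 17.3% and 10.2% were called higher on these days, and 12.7% and 21.8% lower on days 1 and 4. In D6-deficient skin 4, 4, 5 and 4 receptors were called higher, against 18.2%, 17.5%, 18.8% and 16% of all probe sets tested, and 2, 2, 1 and 1 lower, against 18.1%, 20.6%, 22.4% and 15.7% (medians 0.20, 0.66, 0.79 and 0.17). Ccr7, the receptor of CCL19, rose by 4.37 in WT (SE 0.22, adjusted p = 8.80e-13) and 3.75 in D6-deficient skin (adjusted p = 6.81e-12) on day 4. Ccr1, the receptor of CCL6 and CCL9, rose by 3.35 and 3.13 on the same day. Cxcr4 was called higher on days 1, 2 and 4 in WT skin (1.06, 1.31 and 1.35) and on the 4 days in D6-deficient skin (1.40, 2.60, 1.91 and 1.01), and Cxcr6, the receptor of CXCL16, on the 4 days in both genotypes (0.99 to 1.82). Ccr6, the receptor of CCL20, was higher in WT skin on days 1, 2 and 6 (1.77, 1.40 and 1.11) and differed by -0.03 on day 4. Between the genotypes Ccr6 was not called on any day. Cx3cr1 was not called on any day. The atypical receptors were lower on some of the days. Ackr3, which scavenges CXCL12, was called lower on days 1, 2 and 6 in D6-deficient skin (-1.14, -1.19 and -1.19) and on day 1 alone in WT skin (-0.77). Ackr4, which scavenges CCL19, was called lower on day 4 in both (-1.43 and -1.39) and on days 1 and 2 in D6-deficient skin (-1.15 and -1.80).

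Between the genotypes on day 2, Cxcr4 (0.89, SE 0.22, adjusted p = 0.0161) and Ccr1 (1.50, SE 0.30, adjusted p = 0.00314) were higher and Ackr4 (-1.27, SE 0.35, adjusted p = 0.0359) was lower in D6-deficient skin, and the change of Cxcr4 from day 0 was also greater (1.29, SE 0.31, adjusted p = 0.0130). Over all days Ccr1 was higher (0.50, adjusted p = 0.0283), and Ccr3 (-0.64, adjusted p = 0.00561) and Ackr4 (-0.60, adjusted p = 0.0226) were lower. Cx3cr1, Cxcr6, Ccr1 and Ccr3 lie on chromosome 9 within 2107 kb of Ackr2, the deleted gene. Ackr4 lies on the same chromosome at 17772 kb from it, and Cxcr5, below the filter, at 77372 kb. The part of DNA linked to the deleted gene in the receptor differences was not tested. Of the proteases, Dpp4, which trims CXCL12, was called lower on the 4 days in WT skin (-1.43, -0.57, -1.33 and -1.51) and on day 4 in D6-deficient skin (-1.29), and it was lower in D6-deficient than in WT control skin (-0.88, adjusted p = 0.0241). On their brightest probe sets the shedding proteases Adam10 and Adam17 were not called in any of these comparisons.

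Other homeostatic chemokines gave a mixed picture. Of 4 with a probe set of their own (Ccl17, Ccl22, Ccl25 and Ccl28), 2 were called higher in WT skin on each of the 4 days, against 11.4%, 11%, 17.3% and 10.2% of all probe sets tested. In D6-deficient skin the counts were 2, 1, 1 and 0 on days 1, 2, 4 and 6, against 18.2%, 17.5%, 18.8% and 16%. A count of 1 of 4 is close to the background. Ccl22, a dendritic cell chemokine that acts on CCR4, rose on day 4 by 3.64 in WT (SE 0.26, adjusted p = 1.96e-10) and 2.90 in D6-deficient skin (adjusted p = 3.65e-09). On day 2 it rose in WT skin by 1.10 (adjusted p = 0.00257) and differed by -0.58 in D6-deficient skin (adjusted p = 0.0763). The change to day 2 was lower in D6-deficient skin (-1.68, SE 0.36, adjusted p = 0.00596), the same direction as for Ccl20. Ccl17 gave -1.87 in the same comparison (SE 0.58, adjusted p = 0.0618), and Ccl25 and Ccl28 gave 0.11 and 0.10.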

How the data were processed

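RNA of whole back skin from 30 mice was hybridized to 1 Affymetrix array each. The authors background-corrected, quantile-normalized and summarized the probes by RMA and deposited linear intensities, whose log2 was taken here. The fold or base-line-transformed values that the methods describe were not used here. After removal of 64 control probe sets and of the 9008 with the lowest means (20% of 45037, lowest mean kept 3.73), 1 mean per group was fitted with limma 3.58.1 in R 4.3.3 (lmFit, eBayes). The authors used unpaired t-tests and a 3-fold threshold. Their t-test without the fold threshold is called the methods' t-test here. For changes relative to day 0 it was run on values minus the control median of the same genotype. The spread of the day 0 arrays therefore did not enter that test.

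The 10 chemokines, receptors, other lists and markers were chosen with earlier results of these data known, and all their probe sets are reported, with the brightest quoted. Likeness was Pearson's r over 30 arrays, 3 genes per member. Summed markers are the log2 of summed intensities, which the brightest genes of a list set. A marker list is not reported here. The number of arrays limits the precision: an exact permutation test of 3 against 3 cannot give a p under 0.1. On simulated arrays with 36029 probe sets, 79% of 2-fold and 100% of 4-fold changes were recovered for WT day 4, with 11 false calls. For the genotype difference at day 4 relative to day 0 it was 71% and 98%, with 12 false calls. Only 100 changes of each size were planted, far fewer than were called in the data. The median SD within groups was 0.19, against 0.49 for Ccl20, 0.53 for Cxcl13 and 0.60 for Ccl24. The recovered shares therefore do not describe these 3 genes. Python 3.11.15 and matplotlib 3.10.9 drew the plots.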

Additional observations from a re-analysis of the deposited data

Results flagged for a closer look

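In 3 results the change from control skin to day 2 differed between the genotypes by the test of the difference itself. For Ccl20 the D6-deficient change minus the WT change was -3.37 on the log2 scale (SE 0.52, limma adjusted p = 0.000356), with WT day 2 at 9.50, 7.28 and 9.46 and D6-deficient day 2 at 7.17, 6.11 and 6.35. For Cxcl13 it was 2.02 (SE 0.57, limma adjusted p = 0.0343), from a fall in WT skin (-1.19) and a difference of 0.84 with no call in D6-deficient skin. The D6-deficient day 2 arrays spread from 7.35 to 9.22. On its second probe set the D6-deficient change was instead the larger part, from a mean of 6.08 on day 0 to 7.29 on day 2. Cxcl12 rose in both genotypes, and rose more in D6-deficient skin by 0.54 (SE 0.16, limma adjusted p = 0.0430). In each, the sign of the difference on day 0 was opposite to that on day 2.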

How the results depend on the processing

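The same analysis was repeated under 11 alternatives. The numbers of called probe sets, counted over all days of a comparison, were 31 for TPA against control in WT, 32 for TPA against control in D6-deficient skin, 1 for D6-deficient against WT on the same day, 3 for D6-deficient against WT relative to day 0 and 1 for D6-deficient against WT over all days. Requiring a 3-fold change as well gave 10, 9, 1, 2 and 0. The methods' t-test gave 41, 28, 17, 27 and 0 before adjustment and 25, 19, 0, 0 and 0 after it. Fitting only the arrays of a contrast gave 3 on the same day and 5 relative to day 0, and a covariate from the hybridization controls gave 2 over all days. Averaging a gene's probe sets, which leaves fewer features, gave 15, 16, 1, 3 and 1, and turned the result Cx3cl1, D6-deficient day 4 against day 0, to 0.0335. Leaving out 1 array at a time gave 28 to 35 in WT, 25 to 32 in D6-deficient skin, 1 to 3 on the same day, 1 to 4 relative to day 0 and 0 to 3 over all days, where the 1 call is that of Cxcl14. Of 41 called results on the quoted probe sets, 31 kept their call on leaving out each array and 10 lost it at least once. Without the 3 arrays of D6-deficient day 6, an alternative chosen after seeing the data, 38 of 38 results kept their call, and 36 probe sets were called in WT.

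With the replicate number as a block the counts were 32 for TPA against control in WT, 30 for TPA against control in D6-deficient skin, and then 1, 3 and 1, and 2 of the 41 results lost their call, Ccl9 and Ccl19 on D6-deficient day 2. The numbers do not pair the mice: of 135 same-number pairs 31 had a correlation of deviations over 0.1, with a median of -0.01, and 10 of 30 arrays had their best correlate under their own number. Where a value changed, the cause was not tested.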
